A study of Mus musculus with 17 samples.

Results

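Malat1, Neat1 and 6 noncoding host genes of small nucleolar RNAs (snoRNAs), Gas5, Snhg1, Snhg5, Snhg6, Snhg8 and Snhg12, were followed in macrophages sorted from the mouse synovium, the membrane that lines joints. These 8 genes were chosen by symbol, among 22859 genes in the count table. All 8 passed the filter on low counts, which 15272 genes passed. The study asked how synovial macrophage subsets respond to immune complexes (IC) that arrive by the blood.

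All mice carried the Fcgr2b-KO genotype, which removes the inhibitory receptor for immunoglobulin G, so the controls carried it too and no wild-type group was analysed here. Treated mice were given IC of ovalbumin and rabbit antibody intravenously 8 h before collection, and Control mice were the comparison. Macrophages were sorted from digested synovium by surface proteins into a LYVE1+CX3CR1+ subset, a MHCII+CD11c- subset and a MHCII+CD11c+ subset. Each of the 6 groups held 3 libraries except MHCII+CD11c+ IC, which held 2, for 17 libraries in all. Mice of both sexes and a range of adult ages were used across the study, and the labels gave neither for single libraries. The labels did not say whether libraries came from separate mice or from pools, so the p-values measure only the spread between these libraries, which may be partly technical.

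Long noncoding RNAs are transcripts that are not translated into protein, and several of them stay in the nucleus. Malat1 accumulates in nuclear speckles, bodies rich in splicing factors, and Neat1 is the RNA scaffold of paraspeckles, bodies that hold RNA-binding proteins. The host genes carry snoRNAs in their introns. When the host is spliced, the snoRNAs are cut out and go on to guide the chemical modification of ribosomal RNA, while the spliced remainder of many hosts is degraded by nonsense-mediated decay. Because libraries were made from total RNA, transcripts that stay in the nucleus were captured whether or not they carry a poly(A) tail.

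On GRCm38 (mm10), by the GENCODE M21 annotation, Malat1 lies at chr19:5795690-5802672 and Neat1 at chr19:5824708-5845478, both on the minus strand with 22035 bases between them. Gas5 lies at chr1:161034422-161038539, Snhg1 at chr19:8723475-8726443 and Snhg12 at chr4:132308623-132311024, all on the plus strand. Snhg5 lies at chr9:88521050-88522929, Snhg6 at chr1:9941959-9944118 and Snhg8 at chr3:123507552-123508404, all on the minus strand. The annotation places 10 snoRNA genes inside Gas5, 8 inside Snhg1, 5 inside Snhg12, 2 inside Snhg5 and 1 each inside Snhg6 and Snhg8. These 27 entries have 25 distinct names, because Snord80 in Gas5 and Snora16a in Snhg12 are repeated at nearly the same place. For 26 of the 27 entries the snoRNA overlaps the union of the host's annotated exons, which includes transcripts of all kinds. Of these names, 0 had a row in the count table, so levels of the snoRNAs themselves were not analysed here. Snhg6 shares 127 exon bases with Mcmdc2 on the opposite strand, so its low counts are uncertain, since the strand setting used in counting was not given in the sources used here.

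The start sites of the hosts are shown because many snoRNA hosts and ribosomal protein genes belong to the class that starts transcription at a cytosine followed by a run of pyrimidines, the 5′ terminal oligopyrimidine tract. RefSeq start sites on GRCm38.p6 were found for 6 of the 8 genes, with none for Neat1 and Snhg6. Each line gives 30 bases before and 30 bases from the annotated start, 5′ to 3′ on the strand of the gene, and capitals mark the longest run that opens with C within 10 bases of the start and has at least 5 C or T bases in a row.
Malat1, chr19:5802643-5802702: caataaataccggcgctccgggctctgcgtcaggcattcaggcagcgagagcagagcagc
Gas5 first start, chr1:161034571-161034630: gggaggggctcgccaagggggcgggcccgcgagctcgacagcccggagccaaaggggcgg
Gas5 second start, chr1:161035136-161035195: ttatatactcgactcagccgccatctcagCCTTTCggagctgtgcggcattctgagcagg
Snhg1, chr19:8723457-8723516: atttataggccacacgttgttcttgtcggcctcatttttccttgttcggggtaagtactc
Snhg5, chr9:88522868-88522927: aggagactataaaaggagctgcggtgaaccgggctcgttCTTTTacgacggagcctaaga
Snhg8, chr3:123508307-123508366: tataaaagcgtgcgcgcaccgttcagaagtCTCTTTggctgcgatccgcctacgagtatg
Snhg12, chr4:132308648-132308707: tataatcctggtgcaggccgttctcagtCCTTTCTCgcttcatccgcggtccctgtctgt

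Runs were present at 4 of these 7 start sites, namely the second start of Gas5 and the starts of Snhg5, Snhg8 and Snhg12. Such a run was found at 27.9% of all 32851 start sites in the table and at 38 of 73 start sites of cytosolic ribosomal protein genes (52.1%), counted on the strand of the gene only. The longest was the run of 8 bases at Snhg12, which begins 2 bases before the annotated start. The windows of Malat1, Snhg1 and the first start of Gas5 held no such run within 10 bases of the start. A match in this window is a description and not a mapped start of these transcripts in macrophages.

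Libraries held between 2301913 and 7248939 counts, of which 6.80% to 13.4% came from mitochondrial genes. Summed levels of 5 macrophage markers (Cd68, Adgre1, Csf1r, Fcgr1 and C1qa) were between 4670 and 7162 CPM in LYVE1+CX3CR1+ and MHCII+CD11c- libraries and between 1411 and 3021 CPM in MHCII+CD11c+ libraries, where CPM is the count of a gene scaled to library depth with TMM factors. MHC class II and CD11c genes followed the sort: in Control, the log2 difference of H2-Ab1 was -7.32 ± 0.35 (SE, adjusted p = 1.35e-09) for LYVE1+CX3CR1+ against MHCII+CD11c- macrophages, and Itgax was 4.78 ± 0.47 higher (adjusted p = 9.61e-06) in MHCII+CD11c+ than in MHCII+CD11c- macrophages. At a depth equal to that of the smallest library, LYVE1+CX3CR1+ IC libraries held 11547 to 13864 genes and the other groups 13806 to 17618. The third LYVE1+CX3CR1+ IC library had both the smallest total and the fewest genes.

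Malat1 had the most counts of any nuclear gene in these macrophages, summed over libraries. Over all libraries only the mitochondrial ribosomal RNAs mt-Rnr2 and mt-Rnr1 had more counts, and Malat1 ranked between 3 and 6 among all genes in each library, with rank 3 in 12 of 17. It took 0.810% to 2.19% of the counts of a library. Neat1 took 0.0640% to 0.366% and ranked between 11 and 179. The 6 snoRNA hosts lay far lower, from a median of 46.9 CPM for Gas5 to 4.97 CPM for Snhg6.

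Per kilobase of annotated exon, the order among the hosts changed. The median over libraries was 2110 CPM per kb for Malat1 and 82.8 for Neat1, a 25.5-fold difference in level. Among the hosts, Snhg8 had the highest median at 20.6 CPM per kb, above Gas5 at 12.5, Snhg5 at 8.78, Snhg1 at 8.24, Snhg12 at 5.22 and Snhg6 at 4.34. These lengths count all annotated exons, and isoforms that are shorter would raise a level, so the order among the hosts depends on the annotation.

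**Figure D1:**
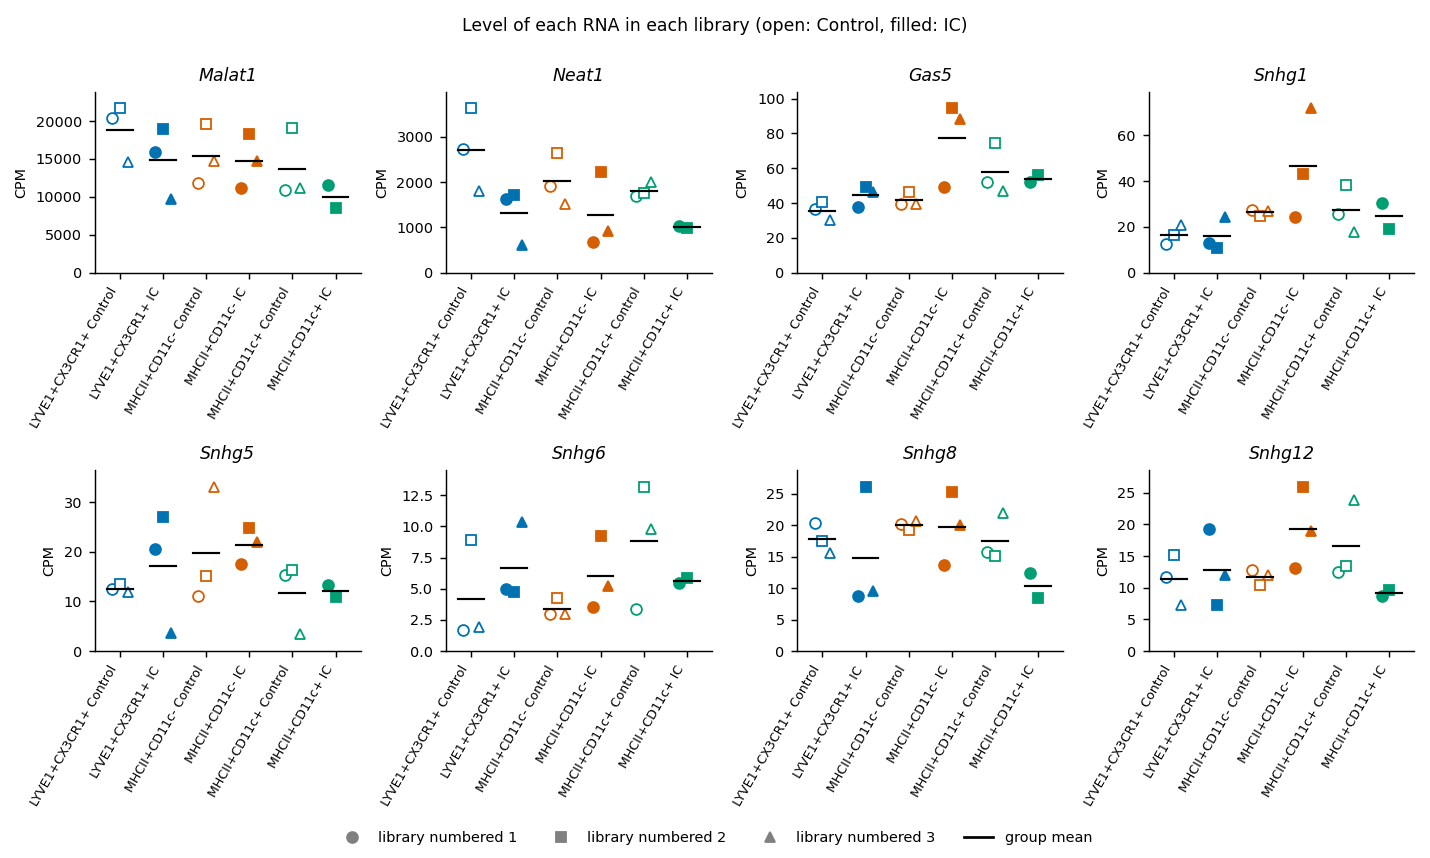
CPM of each of the 8 RNAs (vertical axis, linear, from 0) in each of the 17 libraries, by group; open symbols are Control, filled symbols are IC, the symbol shape gives the library number and the bar is the group mean. Neat1 is lower after IC than in Control without overlap in LYVE1+CX3CR1+ and MHCII+CD11c+ macrophages, and the highest Gas5 values are 2 MHCII+CD11c- IC libraries at 94.6 and 88.3 CPM.

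Levels of Malat1 spread widely within each group. In LYVE1+CX3CR1+ macrophages the levels were 20374, 21703 and 14556 CPM in Control and 15945, 18942 and 9778 CPM after IC. MHCII+CD11c- macrophages had 11789, 19627 and 14732 CPM in Control and 11212, 18244 and 14786 CPM after IC. MHCII+CD11c+ macrophages had 10966, 19112 and 11135 CPM in Control and 11559 and 8512 CPM after IC. All groups overlapped with each neighbour in the order of their means, which ran from 18878 ± 3801 CPM (SD, n = 3) in LYVE1+CX3CR1+ Control to 10036 ± 2155 CPM (SD, n = 2) in MHCII+CD11c+ IC. The library numbered 2 was the highest in 5 of the 6 groups.

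Levels of Neat1 had lower means after IC in all 3 subsets, although none of these differences was called. LYVE1+CX3CR1+ libraries had 2728, 3634 and 1797 CPM in Control and 1630, 1720 and 611 CPM after IC. MHCII+CD11c+ libraries had 1683, 1755 and 1996 CPM in Control and 1038 and 988 CPM after IC. In both subsets each IC library lay below each Control library. MHCII+CD11c- libraries had 1914, 2650 and 1514 CPM in Control and 674, 2212 and 926 CPM after IC, so the groups overlapped through the second IC library.

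The fitted difference of Neat1 did not pass the edgeR test. It was -1.04 on the log2 scale (SE 0.47, 95% interval -2.06 to -0.02) in LYVE1+CX3CR1+ macrophages, with an adjusted p of 0.343 by edgeR's quasi-likelihood test with Benjamini-Hochberg adjustment over all genes tested. In MHCII+CD11c- macrophages it was -0.67 (interval -1.69 to 0.34) and in MHCII+CD11c+ macrophages -0.84 (interval -1.998 to 0.32). Averaged over the 3 subsets it was -0.85 ± 0.28 (SE, interval -1.47 to -0.23), with an unadjusted p of 0.0111 and an adjusted p of 0.135 in edgeR. The average takes all libraries as independent, although the labels did not say whether the subsets came from the same mice. For this average, DESeq2 gave an adjusted p of 0.0378, and leaving out the second MHCII+CD11c- IC library gave -1.07 (adjusted p = 0.0210 in edgeR). Without the third LYVE1+CX3CR1+ IC library, the fitted difference in that subset was -0.65 (adjusted p = 0.574 in edgeR). Without the second Control library of that subset it was -0.77 (adjusted p = 0.664 in edgeR).

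Set against Malat1 within the same library, Neat1 was also lower after IC in LYVE1+CX3CR1+ macrophages. Neat1 counts were 13.4%, 16.7% and 12.3% of Malat1 counts in the Control libraries and 10.2%, 9.08% and 6.25% in the IC libraries, without overlap. In MHCII+CD11c- macrophages they were 16.2%, 13.5% and 10.3% in Control and 6.01%, 12.1% and 6.26% after IC. In MHCII+CD11c+ macrophages the ranges overlapped, with 9.18% to 17.9% in Control and 8.98% and 11.6% after IC. These ratios were formed after the levels had been seen and are a description.

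No member passed the test of IC against Control in any subset with edgeR or DESeq2. Over all genes, 0.963% were called in the LYVE1+CX3CR1+ subset, 0.701% in the MHCII+CD11c- subset and 0.216% in the MHCII+CD11c+ subset, and 3.35% for the mean of the 3 subsets, where edgeR called no member and DESeq2 called Neat1. With an unadjusted p below 0.05 there was 1 of 8 members in LYVE1+CX3CR1+ macrophages (Neat1; 14.1% of all genes), 1 in MHCII+CD11c- (Gas5; 9.99%), 0 in the MHCII+CD11c+ subset (5.21%) and 2 for the mean (Neat1 and Gas5; 17.7%). IC and Control libraries did not overlap for 1 member in LYVE1+CX3CR1+ (21.6% of all genes), 2 in the MHCII+CD11c- subset (17.2%) and 3 in the MHCII+CD11c+ subset (23.1%). DESeq2 gave 1, 1, 0 and 2 members at an unadjusted p under 0.05 in the same order. The shares of all genes given here are from edgeR. DESeq2 called more genes, 433 against 147 in LYVE1+CX3CR1+ and 288 against 107 in MHCII+CD11c- macrophages.

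**Figure D2:**
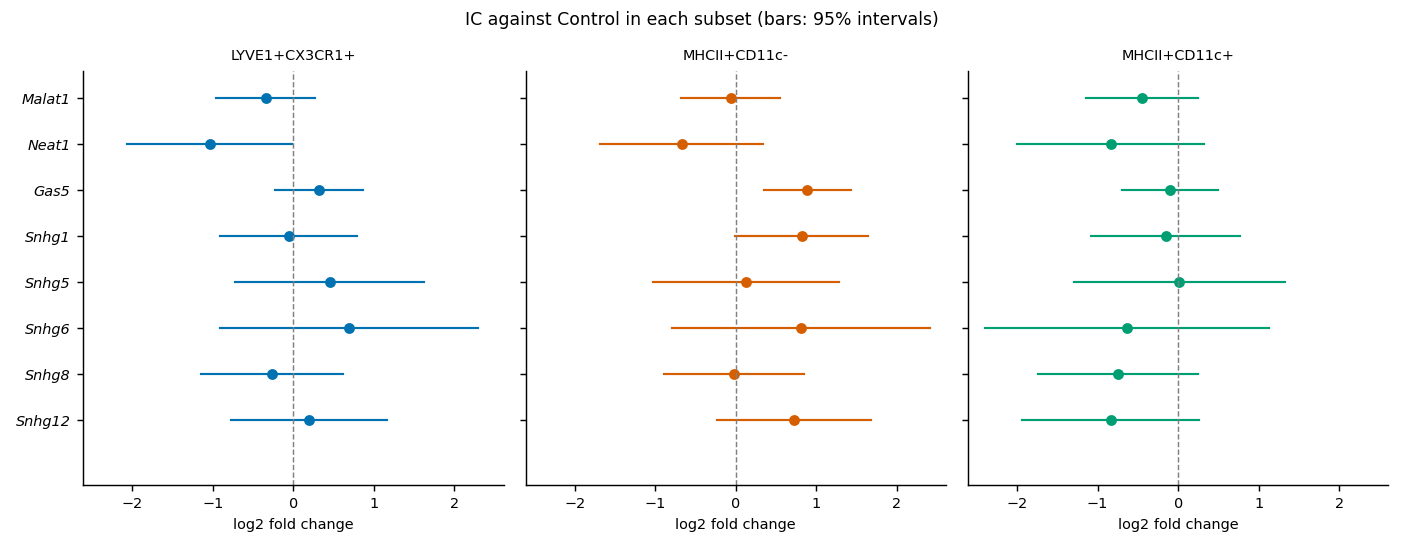
Log2 fold change of IC against Control (horizontal axis) with its 95% interval for each of the 8 RNAs in each subset, from the edgeR fit over all 17 libraries; the dashed line marks no difference. Most intervals include 0, the exceptions being Neat1 in LYVE1+CX3CR1+ (-2.06 to -0.02) and Gas5 in MHCII+CD11c- macrophages (0.35 to 1.43).

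Gas5, a host whose spliced RNA is known to accumulate when growth or translation stops, was higher after IC in MHCII+CD11c- macrophages in each library, although it did not pass the test. The levels were 39.5, 46.1 and 39.5 CPM in Control and 49.0, 94.6 and 88.3 CPM after IC, without overlap. The difference was 0.89 ± 0.26 (log2, SE; 95% interval 0.35 to 1.43), with an unadjusted p of 0.00246 and an adjusted p of 0.140 in edgeR. LYVE1+CX3CR1+ libraries had 36.4, 40.5 and 30.1 CPM in Control and 37.7, 49.1 and 46.5 CPM after IC, and MHCII+CD11c+ libraries had 52.1, 74.3 and 46.9 CPM in Control and 52.0 and 55.9 CPM after IC. In both of these subsets the groups overlapped. Without the first MHCII+CD11c- IC library, the lowest of the 3, the difference in that subset was 1.13 (adjusted p = 0.0346 in edgeR).

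Snhg1, which hosts several box C/D snoRNAs, had its highest mean in the same group. MHCII+CD11c- libraries had 27.5, 24.6 and 26.7 CPM in Control and 24.2, 43.1 and 71.8 CPM after IC. The IC group spanned from below all 3 Control libraries to above them, and the difference of 0.82 ± 0.40 (log2, SE) did not pass the test (adjusted p = 0.506 in edgeR). LYVE1+CX3CR1+ libraries had 12.4, 16.2 and 20.9 CPM in Control and 12.9, 10.7 and 24.5 CPM after IC, and MHCII+CD11c+ libraries had 25.7, 38.5 and 17.8 CPM in Control and 30.4 and 18.9 CPM after IC.

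Snhg12, a host of box H/ACA and box C/D snoRNAs, had IC values on opposite sides of Control in the MHCII+ subsets. It was at 12.8, 10.4 and 12.04 CPM in MHCII+CD11c- Control and 13.1, 26.0 and 19.0 CPM after IC, and all IC libraries lay above all Control libraries. In MHCII+CD11c+ macrophages it was at 12.5, 13.4 and 23.8 CPM in Control and 8.67 and 9.71 CPM after IC, with each IC library below each Control library. Neither difference passed the test, at 0.72 (95% interval -0.24 to 1.68) and -0.84 (interval -1.93 to 0.25).

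The other hosts were at low counts, and replicates of Snhg5 and Snhg6 spread widely. Snhg8 lay between 8.43 and 26.1 CPM, and its IC libraries in MHCII+CD11c+ macrophages, at 12.3 and 8.43 CPM, were below all 3 Control libraries at 15.7, 15.05 and 21.9 CPM. Snhg5, the host of Snord50a and Snord50b, lay between 3.40 and 33.1 CPM. Snhg6 lay between 1.73 and 13.2 CPM with 9 to 71 counts a library. For groups of 3 libraries, the median coefficient of variation was 59.1% for Snhg5 and 48.9% for Snhg6, against 21.6% for Snhg8, 14.7% for Gas5 and 25.7% for Malat1. Counting error alone gave medians of 12.2%, 23.5%, 11.2%, 7.22% and 0.407%, in the same order.

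Markers of other cells differed between the MHCII+CD11c+ groups in which Neat1, Snhg8 and Snhg12 did not overlap. Summed neutrophil markers were 66.3 to 250 CPM in Control and 0.549 to 1.76 CPM after IC, and mast cell markers 0.424 to 3.40 CPM and 20.4 to 46.1 CPM. None of these genes was called by edgeR, but an unadjusted p was under 0.05 for 5 of 6 and 4 of 5. Endothelial markers were at 3.02 to 14.5 CPM in Control and 26.4 to 27.6 CPM after IC. Macrophage markers were at 1411 to 2176 CPM and 2397 to 3021 CPM. The other summed lists overlapped. Of the markers of the sort, Timd4 was called higher after IC, by 2.15 ± 0.36 (log2, SE; adjusted p = 0.0113 in edgeR). In MHCII+CD11c- macrophages, where Gas5 and Snhg12 did not overlap, the ranges overlapped for neutrophil markers (0.333 to 139 CPM in Control and 1.11 to 18.7 CPM after IC) and for mast cell markers (0.353 to 4.68 CPM and 1.11 to 32.3 CPM). Summed markers of the sort did not overlap there, at 17403 to 18563 CPM in Control and 13368 to 14406 CPM after IC. In LYVE1+CX3CR1+ macrophages, where Neat1 did not overlap, summed markers of the sort were 3647 to 4502 CPM in Control and 5607 to 6550 CPM after IC. Of these, H2-Eb1, Cd74 and H2-Aa were called lower (3 of 10, against 124 of 15272 genes). Muscle and fat markers were 4.24 to 5.39 CPM and 0 to 1.75 CPM, and the other lists overlapped. Genes at equal depth numbered 16373 to 17375 in Control and 11547 to 13864 after IC. The part of these markers and gene numbers in the values of the members was not tested.

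Subsets differed in Snhg1 after IC. The LYVE1+CX3CR1+ libraries (12.9, 10.7 and 24.5 CPM) and the MHCII+CD11c- libraries (24.2, 43.1 and 71.8 CPM) differed by -1.54 ± 0.42 on the log2 scale (SE, 95% interval -2.40 to -0.68), with an adjusted p of 0.0274 in edgeR. The groups met at the third LYVE1+CX3CR1+ and the first MHCII+CD11c- library. Over all genes, 5.54% were called in this contrast, and Snhg1 was the 1 member among 8. Its adjusted p was 0.0139 in DESeq2 and 0.128 in an edgeR fit with only these 2 groups. Leaving out either of the other LYVE1+CX3CR1+ IC libraries, the first or the second, gave -1.38 (adjusted p = 0.0886 in edgeR) and -1.29 (adjusted p = 0.101 in edgeR), and the call was also lost without the second or the third MHCII+CD11c- IC library.

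Markers of other cells also differed between these groups. Markers of T and B cells were listed at 0 in all 3 LYVE1+CX3CR1+ IC libraries for their summed level, against 1.11 to 19.1 CPM in MHCII+CD11c- IC libraries, so all 5 of 5 genes were at 0 in the former group. Summed fibroblast markers were 33.0 to 143 CPM against 56.3 to 124 CPM, and neutrophil markers 0 to 5.34 CPM against 1.11 to 18.7 CPM, with 5 of 6 genes at 0 in the LYVE1+CX3CR1+ group. Endothelial markers summed to 0.877 to 27.3 CPM against 5.09 to 32.9 CPM. Mast cell markers summed to 0 to 9.06 CPM against 1.11 to 32.3 CPM, red cell markers to 0 to 2.20 CPM against 0.443 to 23.6 CPM, and muscle and fat markers to 0 to 1.75 CPM against 3.54 to 11.8 CPM. Their part in the Snhg1 difference was not tested.

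In Control, Gas5 values of LYVE1+CX3CR1+ libraries lay below those of MHCII+CD11c+ libraries without overlap, and the difference did not pass the test. Its difference was -0.70 ± 0.26 (log2, SE), with an adjusted p of 0.0753 in edgeR and 0.0363 in DESeq2. After IC it was -0.80 ± 0.26 in LYVE1+CX3CR1+ against MHCII+CD11c- macrophages, with overlap and an adjusted p of 0.0771 in edgeR. Fewer cells of a type and less RNA per cell cannot be told apart in these bulk samples.

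No member was called between subsets in Control by edgeR, while DESeq2 called Gas5 in LYVE1+CX3CR1+ against MHCII+CD11c+ macrophages. Over all genes, edgeR called 1.56% in LYVE1+CX3CR1+ against MHCII+CD11c-, 15.2% in LYVE1+CX3CR1+ against MHCII+CD11c+ and 8.66% in MHCII+CD11c+ against MHCII+CD11c- macrophages. Members with an unadjusted p under 0.05 numbered 0, 1 and 0 in these contrasts, in edgeR as in DESeq2 (10.2%, 26.6% and 21.4% of all genes in edgeR). Libraries did not overlap for 1 member in each (21.6%, 37.7% and 27.4%), which were Snhg1 in the first and Gas5 in the other two.

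After IC, LYVE1+CX3CR1+ against MHCII+CD11c- macrophages had 2 members at an unadjusted p under 0.05 (21.7% of all genes) and none without overlap (21.9%). LYVE1+CX3CR1+ against MHCII+CD11c+ macrophages had no member called by edgeR or DESeq2 (11.9% of all genes in edgeR), none at an unadjusted p under 0.05 in edgeR and 1 in DESeq2 (25.8% of all genes in edgeR) and 1 without overlap (40.9%). MHCII+CD11c+ against MHCII+CD11c- macrophages had no member called by either tool (4.03% in edgeR), none at an unadjusted p under 0.05 in edgeR and 3 in DESeq2 (14% of all genes in edgeR) and 3 without overlap, Snhg5, Snhg8 and Snhg12 (36.6%). In this last contrast the fitted values of all 8 members were below 0, with a median of -0.69 against -0.03 over all genes. The values of Neat1 and Snhg6 changed sign in 1 and 3 of 24 alternative fits. Shares of all genes at an unadjusted p under 0.05 were not counted for DESeq2, so its counts of members have no share beside them.

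**Figure D3:**
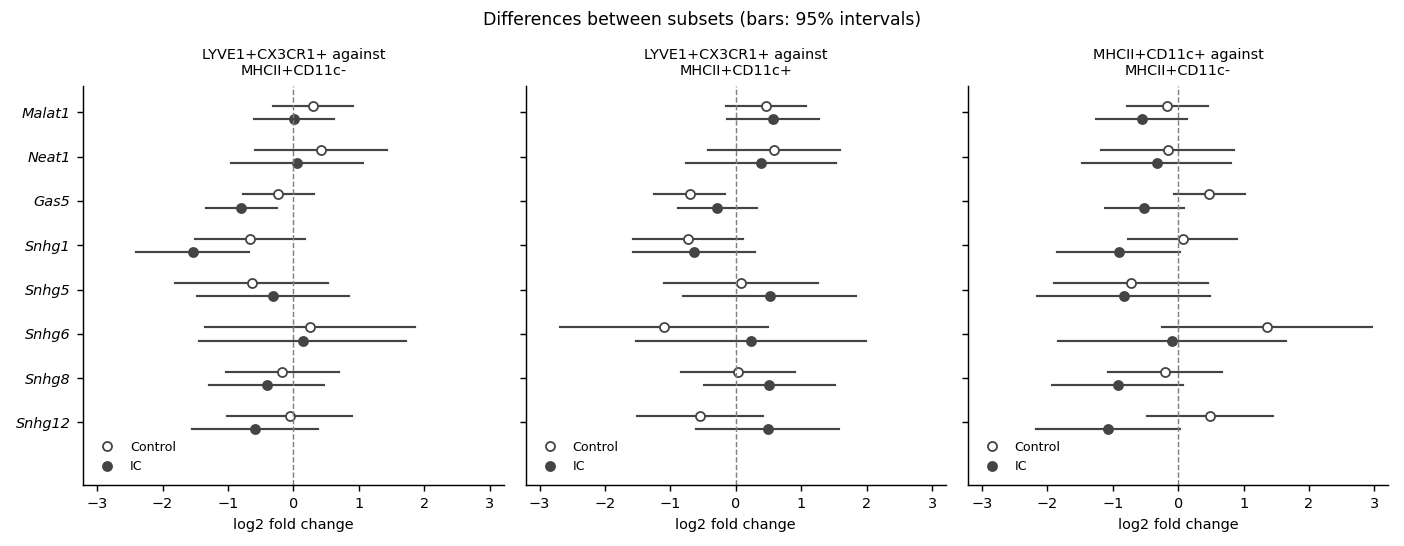
Log2 fold change between subsets (horizontal axis) with its 95% interval for each of the 8 RNAs, in Control (open) and after IC (filled); the dashed line marks no difference. Snhg1 after IC in LYVE1+CX3CR1+ against MHCII+CD11c- macrophages, at -1.54, lies farthest from 0.

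The difference of the IC responses between subsets was not called for any member by edgeR or DESeq2. Over all genes, edgeR called 0.0262% for LYVE1+CX3CR1+ against MHCII+CD11c-, 0.0327% for LYVE1+CX3CR1+ against MHCII+CD11c+ and 0% for MHCII+CD11c+ against MHCII+CD11c- macrophages. Members with an unadjusted p under 0.05 numbered 0, 0 and 2 in both tools (7.54%, 8.02% and 3.25% of all genes in edgeR). The 2 members were Gas5, at -0.99 ± 0.39 (log2, SE; adjusted p = 1 in edgeR), and Snhg12, at -1.56 ± 0.70 (adjusted p = 1 in edgeR). All 8 fitted values of this contrast were below 0, with a median of -0.85 against 0.05 over all genes, and those of Neat1 and Snhg5 changed sign in 1 and 6 of 24 alternative fits. This contrast shares the MHCII+CD11c+ and MHCII+CD11c- IC libraries with the contrast of these subsets after IC.

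In the order of group means, 39 of 40 neighbouring groups overlapped over the 8 genes. The exception was Gas5, where MHCII+CD11c+ IC lay above LYVE1+CX3CR1+ IC. MHCII+CD11c- IC had the highest mean of the 6 groups for 4 members, Gas5, Snhg1, Snhg5 and Snhg12. Malat1 and Neat1 had their highest means in LYVE1+CX3CR1+ Control and their lowest in MHCII+CD11c+ IC.

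Malat1 and Neat1 varied together across libraries. The Pearson correlation of their log2 CPM was 0.72 over the 17 libraries and 0.73 after the group means were removed. The gene most like Malat1 was Xist, the nuclear RNA that coats the inactive X chromosome, at 0.88 and, for deviations from group means, at 0.94, the highest of all genes tested on that scale. Xist lay between 510 and 1055 CPM, so each library held RNA of cells with an inactive X chromosome, as in females. Its highest library in a group was also numbered 2 in 5 of the 6 groups. These points share library, depth and preparation, and the correlations are descriptions with no test. Malat1 also correlated at 0.52 with the percentage of mitochondrial counts.

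The genes most like Neat1 were Kdelr3 (0.86), Insig1 (0.84) and Gm45094 (0.81), of which only Insig1, a regulator of sterol synthesis, had more than a median of 15 counts. For deviations from group means these genes stood at places 10, 85 and 255. Malat1 was followed by Gm36940 (0.86) and Or8b53 (0.82), at medians of 28 and 12 counts.

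**Figure D4:**
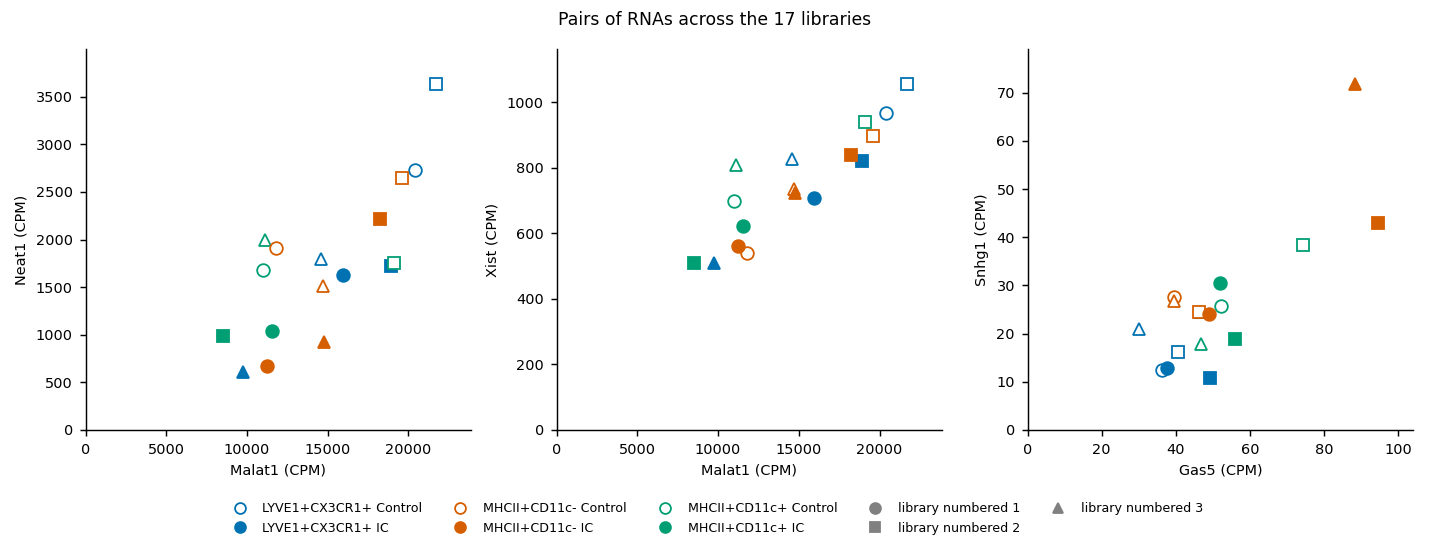
Levels in CPM of Malat1 against Neat1, Malat1 against Xist and Gas5 against Snhg1 in each of the 17 libraries; colour gives the subset, filled symbols are IC and the shape gives the library number. Malat1 and Xist lie along 1 trend that crosses the groups, and the highest Snhg1 value, 71.8 CPM, and the highest Gas5 value, 94.6 CPM, are MHCII+CD11c- IC libraries.

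The genes most like Gas5 were Npm1, a nucleolar protein (0.87), Impdh2, an enzyme of guanine nucleotide synthesis (0.84), and Hsph1, a chaperone (0.83). For deviations from group means they had 0.74, 0.76 and 0.63 and stood only at places 51, 35 and 229 among the genes tested. Gas5 correlated with Snhg1 at 0.72 and with Snhg6 at 0.57. The library numbered 2 was the highest for Gas5 in 6 of 6 groups, and Gas5 correlated at 0.58 with the percentage of mitochondrial counts. Snhg1 was most like Alyref (0.86), an mRNA export factor, St7 (0.82) and Gstp1 (0.82), which stood at places 2, 92 and 86 for deviations from group means.

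The genes nearest to the other hosts had median counts between 3 and 212. Snhg5 was nearest to Gm26947, Pus1 and Wdr70 (0.92, 0.92 and 0.91) and Snhg6 to Snora23, Eif3m and Kri1 (0.82, 0.76 and 0.74). Snhg8 was nearest to Ccdc17, B230369F24Rik and BC024978 (0.88, 0.88 and 0.87) and Snhg12 to Gm29361, Exosc4 and Siglecl1 (0.86, 0.79 and 0.77). With so few counts, these correlations over 17 libraries are descriptions only.

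Among other noncoding snoRNA hosts, 7 of 15 listed genes were tested. After IC, Zfas1 differed by -1.88 ± 0.43 on the log2 scale between LYVE1+CX3CR1+ and MHCII+CD11c- macrophages (SE, adjusted p = 0.00943), at means of 7.08 and 26.4 CPM. For LYVE1+CX3CR1+ against MHCII+CD11c+ macrophages, Snhg15 had means of 7.53 and 30.3 CPM in Control (adjusted p = 0.0252) and differed by -2.51 ± 0.68 after IC (adjusted p = 0.0168). No other of these 7 genes passed the edgeR test in a contrast. Over all genes, 5.54% were called in the contrast of Zfas1, and 15.2% in Control and 11.9% after IC in those of Snhg15.

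Protein-coding snoRNA hosts, which are mostly ribosomal protein and nucleolar genes, had lower levels in the LYVE1+CX3CR1+ than in the MHCII+CD11c+ subset. In Control, 18 of 26 tested hosts were lower and none higher, with a median of -0.96 against 0.05 over all genes, of which 1130 of 15272 were lower and 1196 higher. Rpsa had means of 474 and 1692 CPM, a difference of -1.83 ± 0.17 (SE, adjusted p = 7.1e-08), and Rack1 differed by -1.26 ± 0.17 (adjusted p = 1.03e-05). After IC, 8 of 26 were lower, against 1286 of 15272 over all genes. Of 80 tested cytosolic ribosomal protein genes, 74 were lower in the Control contrast, with a median of -1.13. The 6 noncoding hosts in the same Control contrast had a median of -0.62, with 2 values above 0. Markers of other cells also differed there. Summed neutrophil markers were 0 to 6.96 CPM in LYVE1+CX3CR1+ and 66.3 to 250 CPM in MHCII+CD11c+ Control libraries, with 3 of 6 genes called lower in the former, and 5 of 5 macrophage markers were called higher in it. Their part in the difference of the hosts was not tested. In Control, 9 of 26 hosts were also higher in the MHCII+CD11c+ than in the MHCII+CD11c- subset and none lower, against 561 of 15272 genes higher. For LYVE1+CX3CR1+ against MHCII+CD11c- macrophages, 2 of 26 were lower and none higher, against 186 of 15272 genes lower. Of the cytosolic ribosomal protein genes, 40 of 80 were higher in the former contrast and 11 of 80 lower in the latter.

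Core proteins of the box C/D and box H/ACA snoRNPs, the particles that contain snoRNAs, had lower levels after IC in the LYVE1+CX3CR1+ than in the MHCII+CD11c- subset for 3 of 8 tested genes, where 5.54% of all genes were called and 732 of 15272 were lower. These were Nop56, Nop58 and Snu13, all of the box C/D kind, and the median of the 8 was -0.83 against -0.14 over all genes. Nop56 and Nop58 also host snoRNAs and stand in both lists. For the mean IC response, where 259 of 15272 genes were higher, 3 of 26 protein-coding hosts rose, namely Hspa8 (0.63 ± 0.09, adjusted p = 1.51e-04), Rps2 (0.51 ± 0.09, adjusted p = 0.00230) and Rpl23a (0.55 ± 0.15, adjusted p = 0.0396). Hspa8 is a chaperone and the other two are ribosomal proteins.

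Paraspeckle proteins, the partners of Neat1, did not pass the edgeR test of IC against Control in any subset or for their mean. There 0 of 17 tested genes were called, against 0.216% to 3.35% of all genes. In LYVE1+CX3CR1+ against MHCII+CD11c- macrophages after IC, the called genes included Hnrnpa1, Sfpq and Taf15, all lower. Over all genes, 732 of 15272 were called lower and 114 higher there, with a median of -0.14. Hnrnpa1 had means of 205 CPM in the LYVE1+CX3CR1+ and 359 CPM in the MHCII+CD11c- libraries, a difference of -0.81 ± 0.16 (log2, SE; adjusted p = 0.00317). Nuclear speckle proteins, the partners of Malat1, had 2 of 17 genes lower in the mean IC response, against 252 of 15272 over all genes, namely Srrm2 (-0.40 ± 0.09, adjusted p = 0.0172) and Srsf5 (-0.43 ± 0.11, adjusted p = 0.0257).

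Of 10 nonsense-mediated decay factors, only Smg1, a kinase of the pathway, was called. It was lower after IC in LYVE1+CX3CR1+ macrophages, at means of 189 against 329 CPM (-0.80 ± 0.17, adjusted p = 0.0189), and in the mean response (-0.44 ± 0.10, adjusted p = 0.0134). Over all genes, 0.963% and 3.35% were called in these contrasts. Among 11 tested other nuclear or structural noncoding RNAs, none was called for IC against Control in edgeR. In Control, Tug1 differed by -1.09 ± 0.25 between the MHCII+CD11c+ and MHCII+CD11c- subsets (log2, SE; adjusted p = 0.00689). Between the LYVE1+CX3CR1+ and MHCII+CD11c+ subsets, Pvt1 differed by -3.41 ± 0.84 (adjusted p = 0.00568) and Kcnq1ot1 by -1.21 ± 0.40 (adjusted p = 0.0492) in Control, and Peg13 by 1.06 ± 0.35 after IC (adjusted p = 0.0494). These were 1, 2 and 1 of 11 RNAs in the 3 contrasts, where 8.66%, 15.2% and 11.9% of all genes were called.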

How the data were processed

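RNA of sorted synovial macrophages was measured in 17 libraries (5 ng of total RNA each, stranded low-input total RNA kit, paired-end sequencing), grouped by the labels. The deposited tables hold raw read counts per gene, without normalization. The authors trimmed reads (Trim Galore), aligned them to mm10 with HISAT2 and counted them with featureCounts. Versions, annotation, strand setting and treatment of multiply aligned reads were not given in the sources used here. Each library's own table equalled its column of the joint table in 17 of 17 cases. The joint table has 1 further column, which no label names and which holds only 0, and it was left out.

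Counts were fitted in R 4.3.3 with edgeR 4.0.16 (filterByExpr with a minimum count of 10, TMM, glmQLFit robust, quasi-likelihood F tests, 1 mean for each of the 6 groups, 11 residual degrees of freedom). Adjusted p-values are Benjamini-Hochberg, from edgeR unless DESeq2 is named, over 15272 genes in the main fit and over the genes each alternative fit kept. A gene was called at an adjusted p under 0.05. Intervals are 95%. Correlations used log2 CPM with a prior count of 2. The fit was checked on simulated counts, with the same spread set for all genes and changes only in genes at higher levels than most of the hosts. That check does not bear on the hosts at low counts. DESeq2 1.42.0, other scalings, no filter, a replicate block and leaving out each library were alternatives. Replicates were not repeats of one library (chi-square per degree of freedom at least 6.77 over genes with 20 counts or more). Depth of 2301913 to 7248939 counts limits the hosts, the lowest of which had 9 counts in a library. The 8 members and the gene lists were chosen with earlier results of these data known. Named were all members, at most 4 called genes per list and contrast, and the 3 genes most like each member. Part of the result of the paraspeckle list is not reported here.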

Additional observations from a re-analysis of the deposited data

Results flagged for a closer look

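Snhg12 was flagged for a difference in IC response between the MHCII+ subsets, because its IC libraries lay on opposite sides of Control. All lay above all Control libraries in MHCII+CD11c- macrophages and all below in MHCII+CD11c+ macrophages. IC and Control libraries did not overlap for 17.2% and 23.1% of all genes in these subsets. The share of genes with opposite directions was not counted. The test of the difference gave -1.56 ± 0.70 (log2, SE) for MHCII+CD11c+ against MHCII+CD11c-, with an unadjusted p of 0.0368 and an adjusted p of 1 in edgeR, so it was not called. Groups held 2 or 3 libraries, too few for the outlier test used for larger groups.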

How the results depend on the processing

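The 9 values with an unadjusted p under 0.05 kept their sign in 212 of 212 alternative fits, and the other 95 values of members changed sign in 110 of 2252. The count of members called changed in these cases. For the mean IC response it was 1 with DESeq2 and 1 with the replicate block (Neat1 in both, -0.96, adjusted p = 0.0426 in edgeR with the block), and 0 to 1 when single libraries were left out, with 1 without the second MHCII+CD11c- IC library. For LYVE1+CX3CR1+ against MHCII+CD11c+ macrophages in Control it was 1 with DESeq2 and 0 to 1 over left-out libraries (Gas5, called without the first MHCII+CD11c- IC or the third LYVE1+CX3CR1+ IC library). For LYVE1+CX3CR1+ against MHCII+CD11c- macrophages after IC it was 0 with only the groups compared and 0 to 2 over left-out libraries, where the second member was Gas5, called without the first MHCII+CD11c- IC library. For IC against Control in MHCII+CD11c- macrophages it was 0 to 1 over left-out libraries. The cause of these changes was not tested.

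Same-numbered libraries correlated in their deviations from group means at 0.00129 to 0.286 within a treatment (median 0.0413, over 0.1 in 2 of 16 pairs). Between treatments they correlated at -0.153 to 0.0817 (median -0.00669). The labels did not say whether a number marks a shared mouse or preparation, so the main fit did not pair the libraries. A pairing within a treatment is not excluded. The replicate block changed no other call of a member. Other scalings moved group levels by 0.959 to 1.05 times. They moved the median of all genes by more than 0.1 for the difference of IC responses of LYVE1+CX3CR1+ against MHCII+CD11c- macrophages (-0.16 with TMM, -0.03 with DESeq2 size factors) and against MHCII+CD11c+ macrophages (-0.21 and -0.04), for LYVE1+CX3CR1+ against MHCII+CD11c+ macrophages after IC (-0.12 and -0.02), and for LYVE1+CX3CR1+ against MHCII+CD11c- macrophages after IC with library totals (-0.14 and -0.04), where Snhg1 was at -1.43 (adjusted p = 0.0412 in edgeR). The mean Neat1 level in MHCII+CD11c+ IC moved from 1013 to 977 and 973 CPM, beyond its SD of 34.9 CPM.

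Counts of all genes called moved by more than 1.5 times for 12 of 13 contrasts. Over other settings and over left-out libraries they ranged as follows for IC against Control: 147 genes in LYVE1+CX3CR1+ became 63 to 433 and 43 to 195, 107 in MHCII+CD11c- became 71 to 288 and 29 to 173, 33 in MHCII+CD11c+ became 0 to 73 and 0 to 104, and 511 for the mean became 464 to 924 and 198 to 673. Between subsets in Control, 238 became 245 to 494 and 96 to 411, and 1323 became 956 to 1948 and 785 to 1671. After IC, 846 became 376 to 1422 and 437 to 1118, 1824 became 1153 to 2290 and 666 to 1965, and 616 became 587 to 1060 and 145 to 787. For the differences of IC responses, 4 became 4 to 38 and 1 to 7, 5 became 5 to 42 and 3 to 56, and 0 became 0 to 2 and 0 to 21.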
